A study of Mus musculus with 15 samples.

Results

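Muscle of tumour-bearing mice given an antibody against CD8a was compared with muscle of mice without a tumour, across all genes measured. The libraries were chosen by title: 3 labelled anti-CD8a and 5 labelled as control, 8 of the 15 libraries of the series. RNA came from the tibialis anterior, a fast muscle at the front of the lower leg, of male C57BL/6 (C57BL/6NCrlOri) mice aged 6 to 8 weeks. The anti-CD8a mice had received KrasIKKaL cells, a tumour line, into the trachea, and then 200 µg of anti-CD8a (clone 2.43) into the abdomen 3 times a week. Control mice had no tumour, and the labels name no antibody for them, so the tumour and the antibody cannot be told apart in this comparison. Tumour-bearing mice given rat isotype IgG (n = 4), or anti-PD-L1 at 200 µg per kg 3 times a week (n = 3), carried the same tumour line. They are used here for the estimate of the spread and for levels side by side. The labels give neither the day or hour of sampling nor the tumour load, and whether the libraries of a group are separate mice is not stated. The p-values therefore measure the spread between these libraries.

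Cachexia is the wasting of muscle that accompanies many cancers. In wasting muscle, FoxO transcription factors induce ubiquitin ligases that mark contractile proteins for the proteasome, and lysosomal enzymes such as cathepsin L, named in the title of the series, degrade further protein. Cytotoxic T cells, which antibodies against CD8a deplete, recognise peptides on MHC class I molecules and release interferon gamma.

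Library totals were 17664333 to 19786213 counts in control and 18525199 to 20019333 in anti-CD8a. Levels are given as CPM, counts scaled to library size with trimmed-mean factors, and the label of the tissue was checked in TPM, which also allow for gene length. Over the 8 libraries the fast-fibre genes Acta1, Ckm and Myh4 stood at 14374 to 24590, 12884 to 18050 and 2745 to 4805 TPM, and the slow myosin Myh7 at 8.43 to 543 TPM. Epcam, a marker of epithelium and of lung tumours, did not exceed 0.12 TPM. Cd8a had 0, 1, 4, 0 and 0 counts in control replicates 1 to 5 and 0, 1 and 0 in anti-CD8a replicates 1 to 3, too few to be tested, so the muscle data do not check the depletion. In a principal component analysis of the 8 libraries, the leading component held 29.7% of the variance. Anti-CD8a replicates 1 and 2 lay at 32.1 and 30.9 on it, and replicate 3 at 7.09, near the highest control library at 5.52. On the next component (18.7%), control replicate 3 and anti-CD8a replicate 3 lay at -25.8 and -30.9, and the other libraries at -0.555 to 16.3.

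Anti-CD8a muscle differed from tumour-free muscle by 2 called genes. Of 14372 genes tested, 2 passed an adjusted p under 0.05 (0.0139%): Tbc1d4 rose and Spon2 fell (0.00696% in each direction). For 10427 genes (72.6%) the 95% interval of the fold change lay inside a 2-fold change in either direction, and the median log2 fold change of all genes was 0.01. At an unadjusted p under 0.05 stood 611 higher genes (4.25%) and 498 lower genes (3.47%), together 7.72% of those tested. Ranges of the 3 and the 5 libraries did not overlap for 745 higher genes (5.18%) and 629 lower genes (4.38%), together 9.56%. Against IgG, in the same fit, 6902 genes were called (48.0%), 3333 higher and 3569 lower in anti-CD8a. IgG against control, which shares the control libraries, gave 8410 calls (58.5%), 4335 higher (30.2%) and 4075 lower (28.4%) in IgG. With the 8 libraries fitted alone, 56 of 13721 genes were called (0.408%), 26 higher (0.189%) and 30 lower (0.219%). DESeq2 called 68 of 14366 (0.473%), 34 in each direction (0.237%). Leaving out single libraries gave 0 to 2 calls in the fit of 4 groups, and 5 (without control replicate 4) to 115 (without anti-CD8a replicate 3) in the 8 libraries alone.

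**Figure D1:**
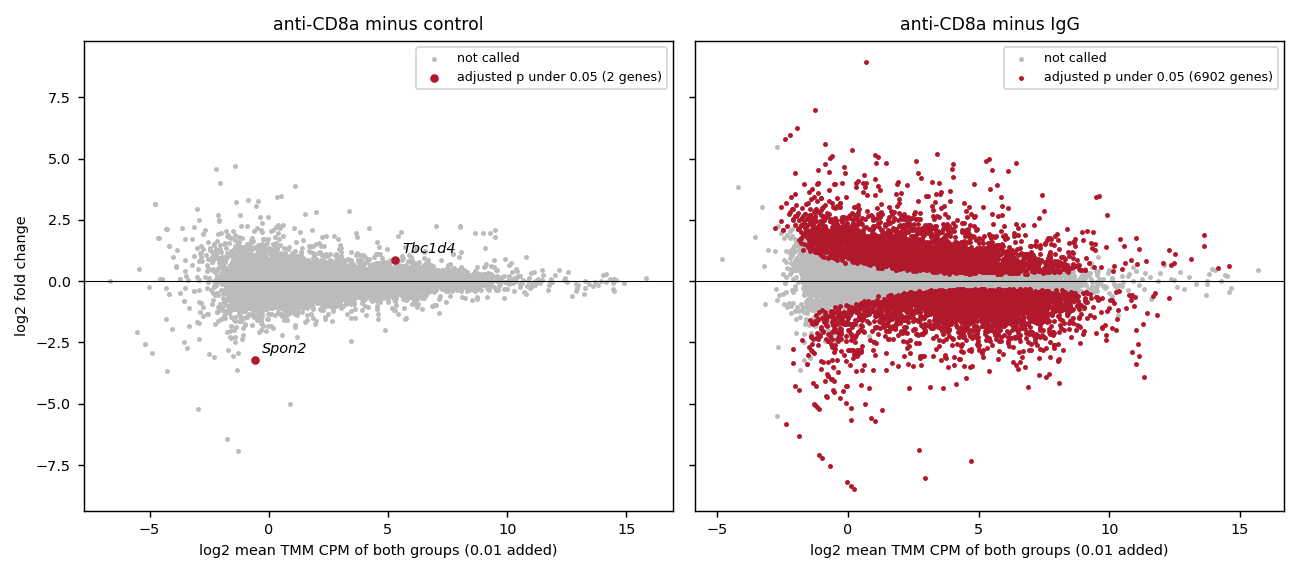
Log2 fold change against log2 mean level (CPM with 0.01 added), 1 point per gene tested, for anti-CD8a minus control (left) and anti-CD8a minus IgG (right). Red points are genes at an adjusted p under 0.05, 2 on the left and 6902 on the right.

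Tbc1d4 (ENSMUSG00000033083), also known as AS160, is the Rab GTPase-activating protein that Akt phosphorylates to let the glucose transporter GLUT4 reach the muscle cell surface. Its level was 26.8, 32.8, 28.4, 26.1 and 25.8 CPM in the control libraries and 52.8, 50.2 and 50.5 CPM in the anti-CD8a libraries. All 3 anti-CD8a libraries lay above every control library. The log2 fold change was 0.87 ± 0.13 (SE; edgeR adjusted p = 0.039, 0.407 with the replicate block and 2.46e-06 by DESeq2 at the ends of the alternatives). Tbc1d4 stood at 36.7 ± 4.68 CPM (SD, n = 4) in IgG and 65.7 ± 10.8 CPM (SD, n = 3) in anti-PD-L1, and anti-CD8a was above IgG by 0.48 on the log2 scale (edgeR adjusted p = 0.00995). Slc2a4, which encodes GLUT4 itself, was at 492 ± 42.1 CPM in control and 470 ± 24.98 CPM in anti-CD8a, with an interval of -0.38 to 0.25 on the log2 scale.

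Spon2 (ENSMUSG00000037379) encodes spondin 2, a secreted matrix protein that binds integrins of leukocytes. It was counted 18, 15, 27, 20 and 32 times in the control libraries and 3, 1 and 3 times in the anti-CD8a libraries. Every anti-CD8a library was at or under the level of 3 counts, and no control library was below 15 counts. Scaled to library size, the summed counts were 9.83-fold lower in anti-CD8a (95% interval 4.62 to 25.01, counting error only), and the fitted log2 fold change was -3.22 ± 0.47 (SE; edgeR adjusted p = 0.039, 0.344 with the replicate block and 0.00138 by DESeq2 at the ends of the alternatives). IgG libraries had 4, 3, 2 and 1 counts and anti-PD-L1 libraries 6, 7 and 3, so that all tumour-bearing libraries lay below all control libraries.

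Just outside the threshold stood Sh3rf2, Nr1d1 and 5330406M23Rik, each at an edgeR adjusted p of 0.0548. Sh3rf2, a RING-finger scaffold protein that counters JNK signalling, was at 10.3, 11.6, 12.5, 10.4 and 12.8 CPM in control and 35.7, 33.8 and 36.1 CPM in anti-CD8a. The groups were far apart, and its log2 difference was 1.61 ± 0.26 (SE). IgG muscle had 31.8 ± 4.93 CPM (SD, n = 4) of Sh3rf2, and the log2 difference of 0.15 between anti-CD8a and IgG did not pass the test. Across the alternatives the adjusted p of Sh3rf2 ran from 5.63e-05 by DESeq2 to 0.344 with the replicate block. Nr1d1 is described with the clock genes.

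**Figure D2:**
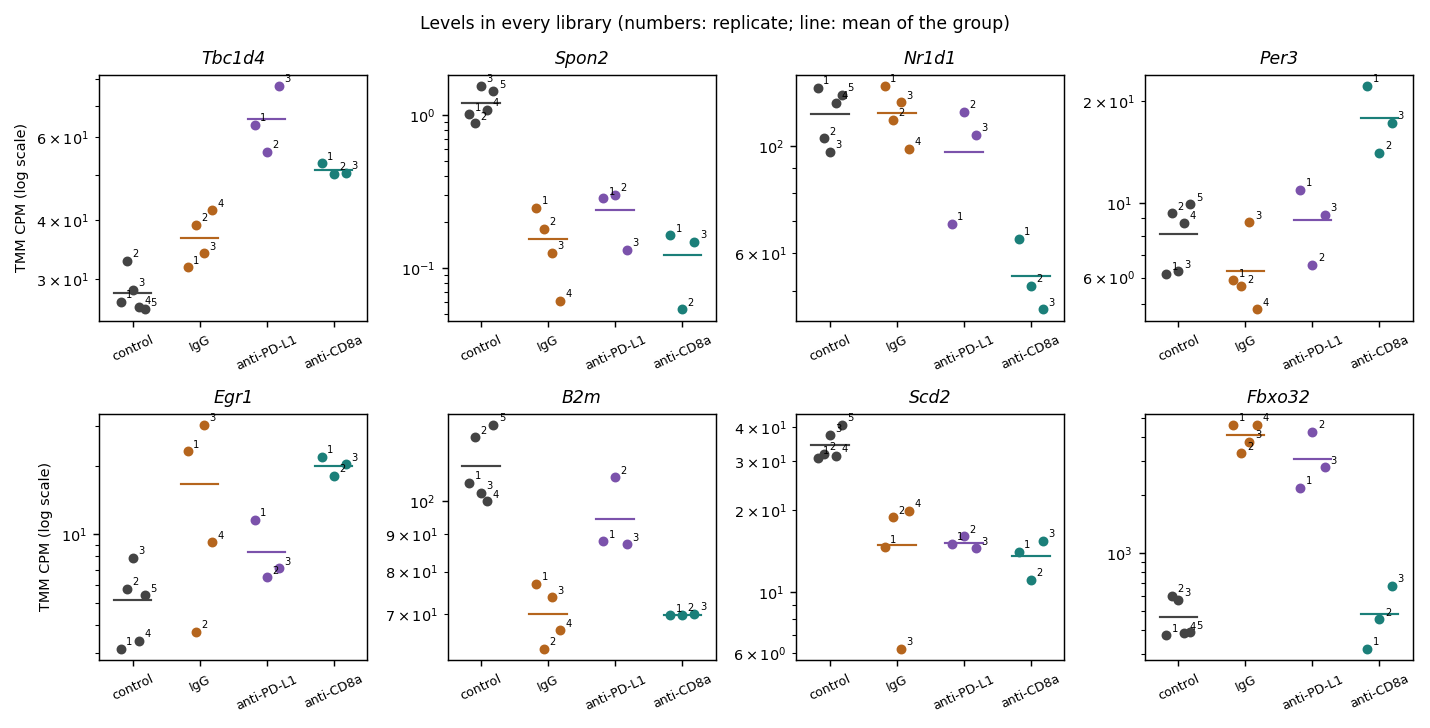
Levels of 8 genes in all 15 libraries (CPM, log scale), with each point numbered by replicate and the mean of the group as a line. Tbc1d4, Per3 and Egr1 are higher in all 3 anti-CD8a libraries than in all 5 control libraries, Spon2, Nr1d1, B2m and Scd2 are lower, and Fbxo32 overlaps.

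None of the listed genes of protein breakdown was called, and their intervals differed in width. Ctsl, which encodes cathepsin L, stood at 80.4, 81.3, 71.8, 77.5 and 89.9 CPM in control and 81.1, 97.8 and 85.5 CPM in anti-CD8a. The groups overlapped, with a log2 difference of 0.14 and an interval of -0.40 to 0.68. Fbxo32, the ubiquitin ligase atrogin-1, was at 375, 602, 575, 385 and 390 CPM in control and 320, 455 and 679 CPM in anti-CD8a, a log2 difference of 0.06 with an interval of -0.50 to 0.62. Both intervals leave out a 2-fold change. Trim63, the ubiquitin ligase MuRF1, was at 283.02, 493, 1258, 289 and 282.8 CPM in control and 257, 303 and 392 CPM in anti-CD8a. Control replicate 3 was far above the other libraries, and the interval of the difference was -1.73 to 0.30. In IgG muscle these 3 genes stood at 381 ± 111, 4057 ± 646 and 4790 ± 813 CPM (SD, n = 4) for Ctsl, Fbxo32 and Trim63.

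None of 32 proteasome subunits was called, all 32 had intervals inside a 2-fold change, and their median log2 difference was 0.09, beside 0.01 over all genes. The member of smallest p was Psmd1, a subunit of the regulatory cap, at 137 ± 12.6 CPM (SD, n = 5) in control and 165 ± 14.5 CPM (SD, n = 3) in anti-CD8a. None of 30 atrophy genes was called, with 17 intervals inside 2-fold, and 2 were higher at an unadjusted p under 0.05. These were Depp1, a FoxO target, at 14.3 ± 4.78 against 31.1 ± 13.4 CPM, and Ddit4, an inhibitor of mTORC1, at a log2 difference of 1.22. The count was 0 without control replicate 1, 4 or 5, and 6 without control replicate 3. Among 32 genes of cathepsins, lysosome and autophagy, 30 intervals lay inside 2-fold and the lysosomal membrane protein Lamp2 was higher at an unadjusted p under 0.05 (94.8 ± 7.17 against 123 ± 11.7 CPM). Against IgG all 32 proteasome subunits fell, where 24.8% of all genes did, with a median of -1.19, as did 20 of 30 atrophy genes with 1 rising.

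Protein synthesis genes had narrow intervals too. All 75 cytosolic ribosomal proteins and all 31 genes of ribosome biogenesis and translation had intervals inside a 2-fold change, with medians of -0.06 and 0.09 and no calls. The smallest p in each list belonged to Rps2 (log2 difference -0.37) and to Nop58, a core protein of nucleolar particles (0.30). None of 21 genes of myostatin and activin signalling, which restrains muscle growth, was called, and Id2 had the smallest p (0.52). None of 17 genes of the integrated stress response was called or stood at an unadjusted p under 0.05. Fitted values of 12 of the 17 were lower, and the median was -0.16. Cars, a tRNA synthetase, had the smallest p and the highest value of that list (0.25). Among 24 heat shock proteins and chaperones the median was 0.03, with Hspa1b, an inducible HSP70, at 0.89.

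The share of mitochondrial transcripts overlapped between the groups. Transcripts of the 37 mitochondrial genes took 17.6% of counts in the lowest control library and 20.4% in the median one, and 20.2%, 23.1% and 20.7% in the anti-CD8a libraries. The means were 20.5% ± 2.27 (SD, n = 5) and 21.3% ± 1.53 (SD, n = 3), a difference of 0.873 percentage points (two-sided exact permutation test, p = 0.554, where the smallest possible is 0.0357). All 13 mitochondrially encoded protein genes and all 45 nuclear genes of oxidative phosphorylation had intervals inside 2-fold, with medians of 0.07 and 0.00 and none at an unadjusted p under 0.05. The smallest p belonged to mt-Nd3 (-0.42) and Ndufb3 (0.32), both subunits of complex I. Against IgG, 34 of the 45 nuclear genes rose and 0 fell, where 23.2% of all genes rose. Of 20 genes of mitochondrial biogenesis and the tricarboxylic acid cycle, 16 intervals lay inside 2-fold. The exception at an unadjusted p under 0.05 was Idh2, mitochondrial isocitrate dehydrogenase, at 150, 226, 163, 110 and 153 CPM in control and 327, 533 and 250 CPM in anti-CD8a. Of 24 genes of glycolysis and glycogen, 20 intervals lay inside 2-fold. Ldhb, the lactate dehydrogenase subunit of oxidative fibres, was at 172 ± 49.9 against 337 ± 195 CPM with overlapping ranges.

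Genes of fatty acid and branched-chain amino acid use had mostly higher fitted values, with 0 calls in either list in the fit of 4 groups. Of 28 genes of fatty acid use, 7 were higher at an unadjusted p under 0.05, where 4.25% of all genes were, and 0 lower, with a median of 0.29. Acadm, medium-chain acyl-CoA dehydrogenase, was at 217, 240, 229, 184 and 185 CPM in control and 299, 378 and 281 CPM in anti-CD8a. Its groups did not overlap, at a log2 difference of 0.60 ± 0.15 (SE; edgeR adjusted p = 0.242). The count for the list fell to 1 without anti-CD8a replicate 2 and reached 10 without control replicate 3. Of 21 genes of branched-chain amino acid breakdown, 7 were higher at an unadjusted p under 0.05. Non-overlapping higher values were found for 8, where 5.18% of all genes had them, and the median was 0.28. Bckdhb, a subunit of the dehydrogenase that commits these amino acids to breakdown, was at 14.9, 15.5, 14.3, 14.9 and 14.5 CPM in control and 19.8, 24.6 and 25.5 CPM in anti-CD8a. Leaving out single libraries moved the count at an unadjusted p under 0.05 between 3 (without anti-CD8a replicate 2) and 9 (without control replicate 3).

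Of 20 genes of insulin signalling and glucose uptake, Tbc1d4 was the called member, and the median was 0.00. Igf1, the growth factor that muscle fibres and macrophages secrete, was at 37.6, 25.7, 24.3, 36.8 and 33.4 CPM in control and 16.9, 15.9 and 10.6 CPM in anti-CD8a. All 3 anti-CD8a values lay below control, at a log2 difference of -1.12 ± 0.35 (SE; edgeR adjusted p = 0.382). Of 20 genes of lipogenesis and sterol synthesis, 2 were lower at an unadjusted p under 0.05 and the median was -0.23. Scd2, a stearoyl-CoA desaturase that makes monounsaturated fatty acids, was at 30.9, 32.0, 37.3, 31.4 and 40.7 CPM in control and 14.1, 11.1 and 15.4 CPM in anti-CD8a. The groups were separate (log2 difference -1.35 ± 0.27 SE; edgeR adjusted p = 0.127), and IgG stood at 14.9 ± 6.17 CPM (SD, n = 4).

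Slow-fibre genes were high in 2 of the 3 anti-CD8a libraries. All 15 tested genes of the slow contractile programme had higher fitted values, 10 at an unadjusted p under 0.05, where 4.25% of all genes were, and none was called. The median log2 difference was 1.79. The summed level of the 15 was 1933, 5891, 2991, 1193 and 1568 CPM in control replicates 1 to 5 and 8306, 13085 and 2348 CPM in anti-CD8a replicates 1 to 3. Replicate 3 of anti-CD8a lay within the control range, control replicate 2 was the highest control, and none of the 15 genes had separate ranges. Leaving out anti-CD8a replicate 2 left 1 gene at an unadjusted p under 0.05, and leaving out anti-CD8a replicate 3 gave 14. Myh7, the slow myosin heavy chain, ran from 32.7 to 1016 CPM in control and from 128 to 2042 CPM in anti-CD8a. Casq2, the calcium buffer of slow fibres, had the smallest p (28.6 ± 11.4 against 76.1 ± 39.2 CPM).

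The same 2 anti-CD8a libraries were high in Sln, sarcolipin, an inhibitor of the calcium pump: 28.5, 23.03 and 2.72 CPM in replicates 1 to 3, beside 1.07 to 4.42 CPM in control. Of 24 genes of excitation, calcium release and membrane channels, 3 were higher at an unadjusted p under 0.05, the median was 0.05 and 20 intervals lay inside 2-fold. Of 20 fast contractile genes, 14 intervals lay inside 2-fold, with a median of -0.04. The myosin of fast oxidative fibres, Myh2, was at 1192 ± 465 against 2387 ± 1558 CPM, and the myosin of the fastest fibres, Myh4, at 22652 ± 4349 against 22993 ± 5500 CPM. Whether the proportion of slow fibres in the tissue sampled differed between libraries was not tested, and in bulk tissue more cells of a type and more RNA per cell cannot be told apart.

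**Figure D3:**
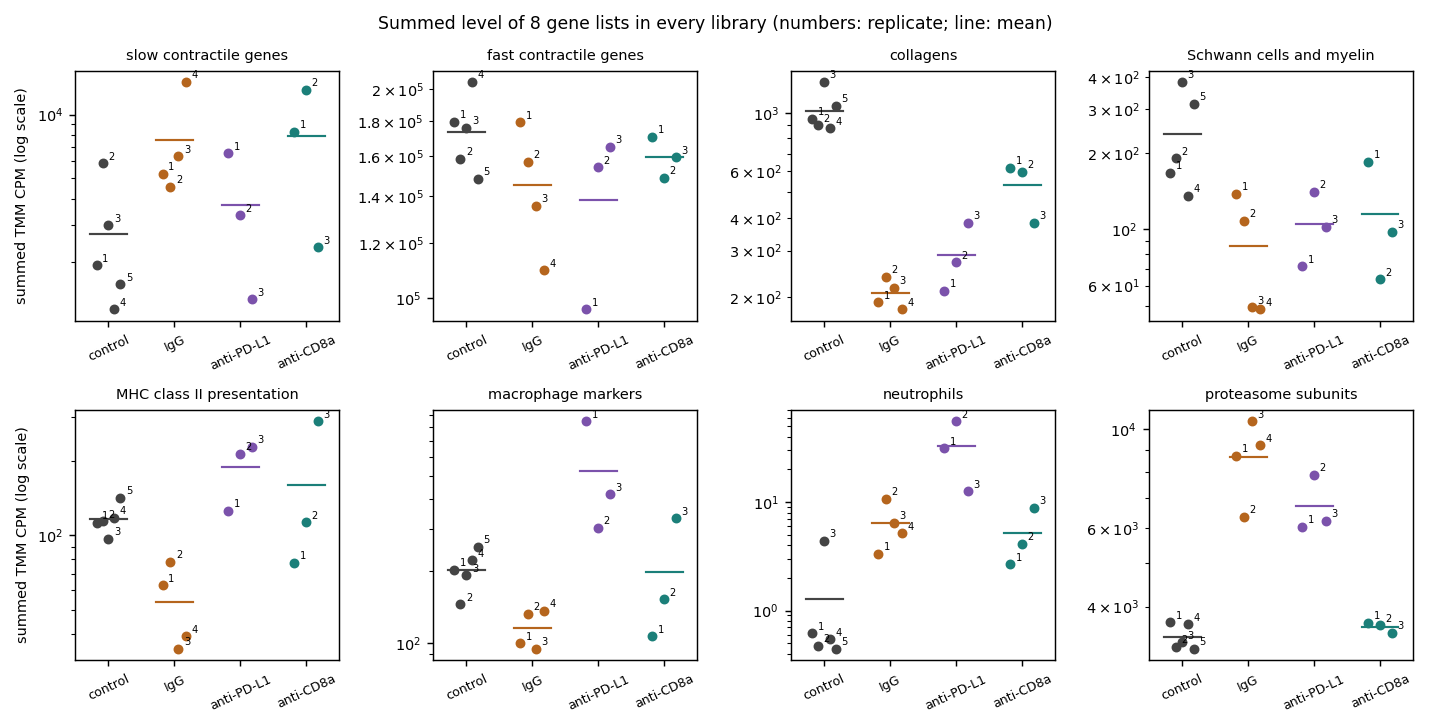
Summed level (CPM, log scale) of 8 gene lists in all 15 libraries, numbered by replicate, with the mean of the group as a line. Anti-CD8a replicate 3 has the lowest slow contractile sum of its group and the highest sums of MHC class II, macrophage and neutrophil genes, collagen sums of all 3 anti-CD8a libraries lie below control, and proteasome sums overlap control.

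Fitted values of 18 of 20 collagens and of 31 of 34 other matrix genes were lower in anti-CD8a, and none passed the test in the fit of 4 groups. Of the 20 collagens, 10 were lower at an unadjusted p under 0.05, where 3.47% of all genes were, 11 had non-overlapping lower values, where 4.38% did, and none was called. Their median was -0.81, and leaving out single libraries gave 8 to 11. In the 8 libraries alone 3 collagens were called lower, where 0.219% of all genes were. Col4a1, a chain of the basement-membrane network, was at 114, 127, 226, 131 and 164 CPM in control and 64.8, 73.0 and 91.5 CPM in anti-CD8a. The groups did not overlap, at a log2 difference of -0.99 ± 0.23 (SE; edgeR adjusted p = 0.189), and IgG stood at 80.6 ± 10.6 CPM (SD, n = 4). Col3a1, a fibrillar collagen, was at 195, 154, 247, 174 and 216 CPM in control and 112, 100 and 30.3 CPM in anti-CD8a, with the lowest value in replicate 3. IgG muscle had 6.00 ± 3.40 CPM of Col3a1, so anti-CD8a lay between control and IgG, and the difference from IgG passed the test (log2 3.75, edgeR adjusted p = 4.15e-05). Against IgG, 16 of 20 collagens rose and 0 fell, where 23.2% and 24.8% of all genes did.

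Of 34 matrix glycoproteins and matrix enzymes, 15 were lower and 1 higher at an unadjusted p under 0.05, where 3.47% and 4.25% of all genes were. The median was -0.45, and 10 to 16 were lower when single libraries were left out. In the 8 libraries alone 1 of the 34 was called lower, where 0.219% of all genes were. Fbn1, fibrillin 1 of the elastic microfibrils, was at 54.2, 46.2, 79.1, 58.4 and 71.3 CPM in control and 24.0, 31.5 and 17.2 CPM in anti-CD8a. Its groups were separate (log2 difference -1.35 ± 0.28 SE; edgeR adjusted p = 0.178). Among 17 markers of fibro-adipogenic progenitors and fibroblasts, the cells that make much of this matrix, 4 were lower at an unadjusted p under 0.05 (2 to 4 without single libraries) and the median was -0.34. Pdgfra, their surface marker, was at 29.5 ± 4.96 CPM (SD, n = 5) in control and 17.8 ± 3.10 CPM (SD, n = 3) in anti-CD8a with separate ranges. Among 10 tendon genes 3 were lower at an unadjusted p under 0.05 (median -0.66), with Tnmd at 8.25 ± 4.24 against 4.09 ± 1.76 CPM. None of the 10 tendon genes stood at that p without control replicate 1, 2 or 3 or without anti-CD8a replicate 1 or 3. The summed fibroblast list ran from 1007 to 1492 CPM in control and from 968 to 1095 CPM in anti-CD8a, and the tendon list from 79.8 to 203 and from 58.7 to 108 CPM. The part of these cells in the collagen values was not tested.

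Immediate early genes are switched on within minutes of a stimulus, before new protein is made, and 19 of 21 had higher fitted values in anti-CD8a. Of the 21 tested, 11 had non-overlapping higher values, where 5.18% of all genes did. At an unadjusted p under 0.05, 11 were higher, where 4.25% of all genes were, and none was called in the fit of 4 groups. The median was 0.69, and leaving out single libraries gave 9 to 14. In the 8 libraries alone 3 were called higher, where 0.189% of all genes were. Egr1, a zinc-finger transcription factor, was at 3.14, 5.78, 7.88, 3.41 and 5.39 CPM in control and 21.9, 18.04 and 20.3 CPM in anti-CD8a. The groups did not overlap, at a log2 difference of 1.97 ± 0.46 (SE; edgeR adjusted p = 0.189). Fos, a subunit of the AP-1 factor, was at 2.92, 8.43, 14.1, 2.60 and 5.30 CPM in control and 37.6, 24.2 and 29.2 CPM in anti-CD8a. Ier2 was at 3.98 to 4.71 CPM in control and 7.47 to 8.11 CPM in anti-CD8a. The pattern was not shared by every member: Nr4a3, a nuclear receptor that exercise and cAMP induce, was at 200 CPM in control replicate 3 and at 6.49 to 15.2 CPM in the other 7 libraries. In IgG muscle Egr1 stood at 16.6 ± 12.2 CPM and Fos at 21.9 ± 14.9 CPM (SD, n = 4), and neither difference from anti-CD8a passed the test.

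**Figure D4:**
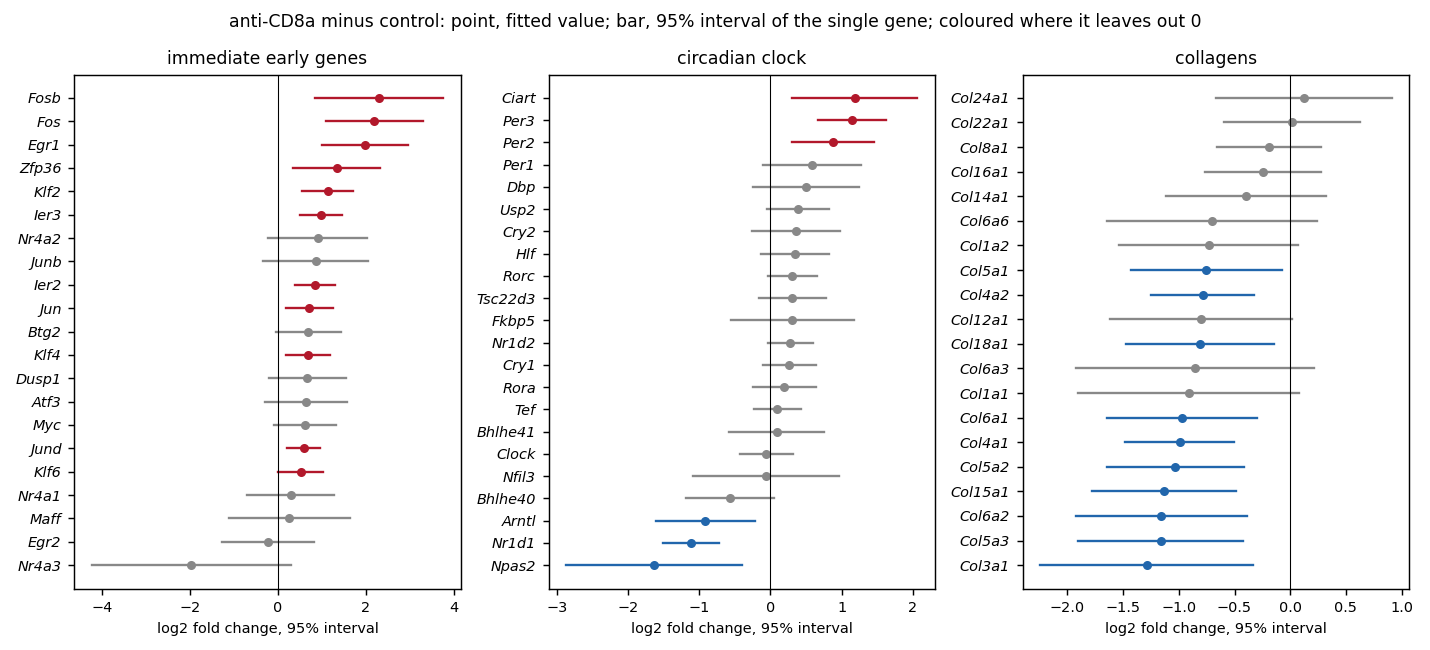
Fitted log2 difference, anti-CD8a minus control, with its 95% interval for each tested gene of 3 lists, coloured where the interval leaves out 0. Immediate early genes lie mostly to the right and collagens mostly to the left, while clock genes lie on both sides, with Nr1d1, Arntl and Npas2 at the low end.

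Fitted values of clock genes lay on both sides of control, and none passed the test in the fit of 4 groups. The circadian clock is a loop in which Arntl and Clock or Npas2 switch on the Per, Cry, Ciart and Nr1d1 genes through E-box sites, the products of Per and Cry repress that pair, and Nr1d1 represses Arntl. The factors Dbp, Tef and Hlf act through D-box sites. Of 22 clock genes tested, 3 were higher and 3 lower at an unadjusted p under 0.05 (3 to 5 and 2 to 4 without single libraries), with a median of 0.29. Nr1d1 was at 132, 104, 97.1, 123 and 128 CPM in control and 64.2, 51.3 and 45.8 CPM in anti-CD8a. All 3 values lay below control (log2 difference -1.12 ± 0.18 SE; edgeR adjusted p = 0.0548, from 5.63e-05 by DESeq2 to 0.419 with the replicate block). IgG stood at 117 ± 14.7 CPM (SD, n = 4) of Nr1d1, and anti-CD8a was below it by a log2 fold change of -1.12 that passed the test (edgeR adjusted p = 0.000262).

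Arntl, the activator, was at 12.2, 11.4, 13.9, 12.2 and 11.2 CPM in control and 5.94, 4.99 and 8.46 CPM in anti-CD8a, again with separate groups (log2 -0.91 ± 0.33 SE). Per3, a period gene, was at 6.17, 9.31, 6.27, 8.71 and 9.90 CPM in control and 22.3, 14.1 and 17.3 CPM in anti-CD8a. Its groups were separate in the opposite direction (log2 1.15 ± 0.23 SE; edgeR adjusted p = 0.127), and it was above IgG by 1.51 (edgeR adjusted p = 0.000183). Per2 was at 6.62 to 15.6 CPM in control and 17.4 to 20.2 CPM in anti-CD8a. Ciart, a repressor of the activating pair, was at 3.93, 5.89, 3.68, 5.90 and 5.17 CPM in control and 17.5, 12.6 and 3.51 CPM in anti-CD8a, with replicate 3 below every control library. The hour of collection is not in the labels.

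The bases before the start sites of 3 of these genes are shown, each 250 bases long, 5′ to 3′ on the gene's strand, from RefSeq on GRCm38.p6. They were chosen because anti-CD8a values lay below control for Nr1d1, above it for Per3 and on both sides for Ciart. Capitals mark the E-box CACGTG, which reads the same on both strands, and the D-box TTATGTAA or its reverse complement TTACATAA, and no marked motifs overlap. Nr1d1 is at chr11:98775378-98775627, Per3 at chr4:151044666-151044915 and Ciart at chr3:95882229-95882478, all on the minus strand.
Nr1d1: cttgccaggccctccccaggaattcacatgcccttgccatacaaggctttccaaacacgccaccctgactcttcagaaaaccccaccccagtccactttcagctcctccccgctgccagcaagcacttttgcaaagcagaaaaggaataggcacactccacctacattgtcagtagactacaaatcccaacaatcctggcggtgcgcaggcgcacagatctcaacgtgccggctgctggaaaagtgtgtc
Per3: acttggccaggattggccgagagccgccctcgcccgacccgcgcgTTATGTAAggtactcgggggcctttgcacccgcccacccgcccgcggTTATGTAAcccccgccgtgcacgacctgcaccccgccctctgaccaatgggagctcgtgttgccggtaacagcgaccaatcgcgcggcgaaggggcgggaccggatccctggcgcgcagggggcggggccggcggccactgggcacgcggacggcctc
Ciart: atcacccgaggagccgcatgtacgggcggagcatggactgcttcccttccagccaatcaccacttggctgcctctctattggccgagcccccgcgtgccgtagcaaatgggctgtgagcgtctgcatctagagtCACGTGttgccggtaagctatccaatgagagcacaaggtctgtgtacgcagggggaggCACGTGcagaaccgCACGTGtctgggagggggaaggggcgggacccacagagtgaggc

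Per3 holds 2 copies of the D-box in this window and Ciart 3 copies of the E-box, while neither motif is in the window of Nr1d1. Of 32851 RefSeq windows, 1978 hold the E-box (6.02%) and 269 the D-box (0.819%). By symbol, 6.86% of 27025 held the E-box and 0.977% the D-box. Of the 23 listed clock genes 19 had a window, and 6 of them held the E-box and 1 the D-box. The nuclear receptor motif AGGTCA was searched on both strands. It was held by 4260 of 27025 symbols (15.8%), 4 of the 19 clock genes and none of the 3 genes shown. A match describes the letters and is not a measured binding site.

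Fitted values of 17 of 18 MHC class I genes and 38 of 43 interferon genes were lower in anti-CD8a, and none passed the test in the fit of 4 groups. Of the 18 genes of MHC class I presentation and the immunoproteasome, 6 had non-overlapping lower values, where 4.38% of all genes did. At an unadjusted p under 0.05, 5 were lower, where 3.47% of all genes were, and 0 were higher. The median was -0.29, and leaving out single libraries gave 4 to 7 lower. B2m, the light chain of every class I molecule, was at 106, 122, 103, 100 and 127 CPM in control and 69.7, 69.8 and 69.9 CPM in anti-CD8a. The anti-CD8a libraries were close together and all below control, at a log2 difference of -0.68 ± 0.13 (SE; edgeR adjusted p = 0.107). IgG was at 70.0 ± 6.56 CPM (SD, n = 4) of B2m. The classical heavy chains H2-K1 and H2-D1 overlapped, at log2 differences of -0.18 and -0.29.

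Of 43 interferon response genes, 10 were lower at an unadjusted p under 0.05, where 3.47% of all genes were, and 0 higher, with a median of -0.39 and 7 to 12 lower when single libraries were left out. Cxcl9, a chemokine that interferon gamma induces, had the smallest p, at 1.07, 1.65, 0.805, 1.03 and 1.78 CPM in control and 0.163, 0.483 and 0.297 CPM in anti-CD8a. The groups were separate at a low level, and the smallest anti-CD8a value equals the level that 3 counts give in that library (0.163 CPM). Against IgG, 25 of the 43 interferon genes rose and 1 fell, where 23.2% and 24.8% of all genes did. Cd274, which encodes PD-L1, was at 1.51, 3.48, 2.47, 2.06 and 6.60 CPM in control and 0.817, 1.66 and 2.38 CPM in anti-CD8a, with overlap and an edgeR adjusted p of 0.642.

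Immune cell genes were uneven among the anti-CD8a libraries. All 7 MHC class II genes had higher fitted values, with a median of 0.39, and H2-DMa, a chaperone of peptide loading, had the smallest p (3.41 ± 0.776 against 6.31 ± 5.13 CPM). Their sum was 77.8, 113 and 289 CPM in anti-CD8a replicates 1 to 3, beside 97.0 to 142 CPM in control, and without replicate 3 the median was -0.29. The sum of the 22 macrophage genes was 107, 153 and 333 CPM in the same order, beside 145 to 253 CPM in control, with a median of -0.16 over the genes and Pf4 at 7.30 ± 2.62 against 3.71 ± 0.828 CPM. Retnla, made by alternatively activated macrophages and chosen after its values were seen, was at 27.9, 27.5 and 147 CPM in anti-CD8a and 13.3 to 27.5 CPM in control. Of the 8 control and anti-CD8a libraries, anti-CD8a replicate 3 was the highest in both sums and in Retnla.

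Of 13 neutrophil genes 5 could be tested. All 5 had higher values, 3 at an unadjusted p under 0.05, where 4.25% of all genes were. In the 8 libraries alone 2 of the 5 passed the filter on low counts. The rest passed it only with the IgG and anti-PD-L1 libraries included. S100a8, a calprotectin subunit, was counted 3, 4, 29, 2 and 2 times in control and 19, 32 and 67 times in anti-CD8a. Control replicate 3 reached the anti-CD8a range, and without anti-CD8a replicate 3 no neutrophil gene stood at an unadjusted p under 0.05. Of 28 T and cytotoxic lymphocyte genes 4 could be tested. At an unadjusted p under 0.05, 1 was higher (log2 difference 1.53) and 1 lower. The lower one was Cd247, the zeta chain of the T cell receptor, at 1.10 ± 0.543 against 0.415 ± 0.165 CPM. In the 8 libraries alone 3 of the 4 passed the filter, with 0 higher and 2 lower at that p. Cd3e, a T cell marker, was counted 25, 16, 10, 12 and 18 times in control and 9, 7 and 5 times in anti-CD8a. Its summed counts, scaled to library size, were 2.37-fold lower (95% interval 1.45 to 4.03, counting error only). Cd3e did not stand at that p in the fit of 4 groups. Of 11 B and plasma cell genes 2 could be tested, with Igkc at 0.622 ± 0.696 against 0.103 ± 0.0471 CPM. Igkc did not pass the filter in the 8 libraries alone. Most lymphocyte genes could thus not be tested at this depth. Of 12 chemokines tested, 1 was higher and 1 lower at an unadjusted p under 0.05, and Ccl11 was at 32.3 ± 8.25 against 21.2 ± 0.804 CPM. In the 8 libraries alone 9 of the 12 passed the filter, with 0 higher and 2 lower at that p. Of 19 acute phase and IL-6 response genes, 2 were higher (5 without control replicate 3) and 1 lower at an unadjusted p under 0.05, and Tnfrsf12a, the receptor of TWEAK, was at 32.4 ± 4.46 against 18.2 ± 4.07 CPM.

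Fitted values of 11 of 12 Schwann cell and myelin genes and 15 of 17 endothelial genes were lower. Of the 12 Schwann cell and myelin genes, 6 were lower at an unadjusted p under 0.05, where 3.47% of all genes were, and none was called, with a median of -0.82. Their sum was 167, 191, 383, 136 and 313 CPM in control and 185, 63.5 and 97.8 CPM in anti-CD8a, so the groups overlapped. Leaving out single libraries gave 0 (without anti-CD8a replicate 2) to 7 genes. Gldn, which organises nodes of the axon, had the smallest p (0.824 ± 0.142 against 0.400 ± 0.209 CPM). How much nerve each piece of muscle held was not tested. Of 17 endothelial genes 3 were lower at an unadjusted p under 0.05 (median -0.36), with Apln at 2.69 ± 1.09 against 1.28 ± 0.507 CPM. The count was 0 without control replicate 5 and 7 without anti-CD8a replicate 3.

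Of 22 genes of denervation and the neuromuscular junction, 2 were higher and 1 lower at an unadjusted p under 0.05, with a median of 0.08. Hdac9, a deacetylase that represses MEF2, was at 3.53, 3.36, 2.93, 2.98 and 3.66 CPM in control and 7.35, 8.16 and 5.99 CPM in anti-CD8a. Its groups were separate (log2 1.12 ± 0.35 SE; edgeR adjusted p = 0.382), and it was above IgG by 2.31 (edgeR adjusted p = 0.000257). Of 17 satellite cell and regeneration genes, 1 was higher and 1 lower at an unadjusted p under 0.05. Heyl, a Notch target, was at 7.82 ± 1.45 against 4.51 ± 1.08 CPM.

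Of 13 genes of metallothionein, zinc and iron, 4 were lower at an unadjusted p under 0.05, where 3.47% of all genes were (median -0.38), and Fth1, the ferritin heavy chain, was at 1907 ± 500 against 1393 ± 132 CPM. Leaving out single libraries gave 1 to 3 genes, with 1 without control replicate 2, 3 or 4 or anti-CD8a replicate 2 or 3. Of 15 p53 targets 1 was lower at an unadjusted p under 0.05 (Plk2, log2 -0.66). Fitted values of 11 were lower, and the list median was -0.12. Of 10 adipocyte genes 1 was higher at an unadjusted p under 0.05 (Cidea, 1.78, median 0.37), and of 8 red blood cell genes none was (median 0.33). Slc4a1 had the smallest p of these 8, at 0.120 ± 0.0884 against 0.341 ± 0.264 CPM. Its log2 difference was 1.49, with an interval of -0.94 to 3.92. Of 15 epithelial and lung tumour genes 5 could be tested. At an unadjusted p under 0.05, 1 was higher (Muc1, 0.192 ± 0.0499 against 0.537 ± 0.283 CPM) and 1 lower. In the 8 libraries alone 2 of the 5 passed the filter, and Muc1 did not. Its control mean was near the 0.134 to 0.177 CPM that 3 counts give.

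**Figure D5:**
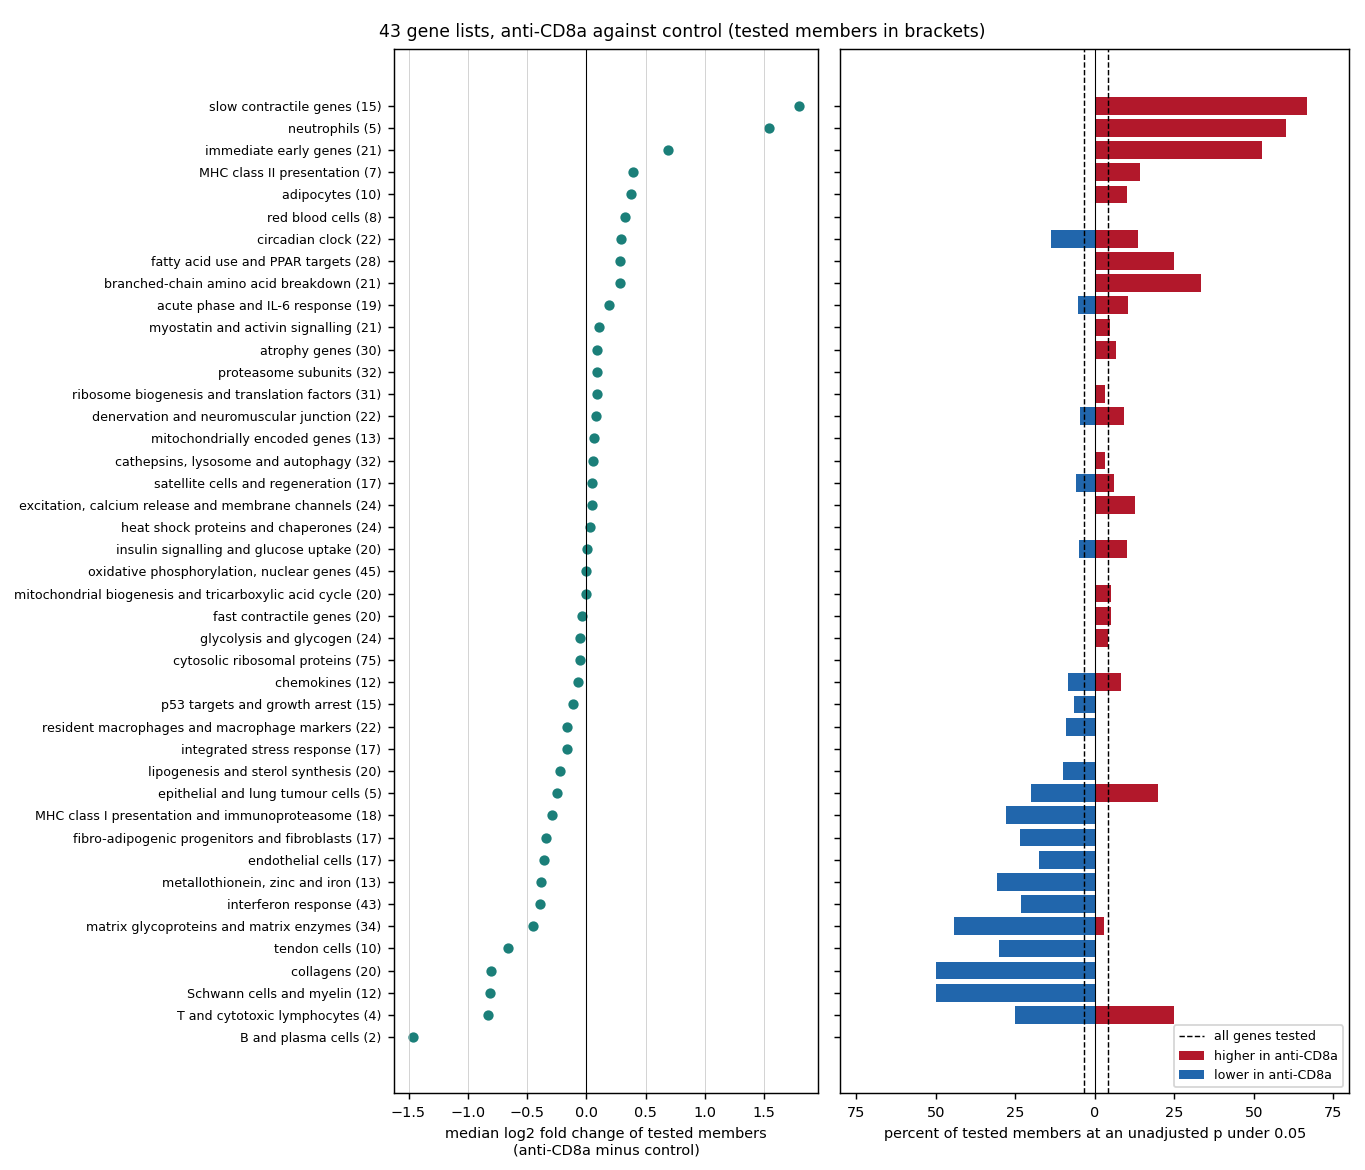
Left, median log2 difference, anti-CD8a minus control, over the tested members of each of 43 gene lists. Right, percent of members at an unadjusted p under 0.05, higher in red and lower in blue, with dashed lines at 4.25% and 3.47%, the shares over all genes; slow contractile, neutrophil and immediate early genes extend furthest to the right, and collagens, Schwann cell and matrix genes to the left.

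With control and anti-CD8a fitted alone, 56 genes were called. Genes described above that were called higher there included Tbc1d4, Sh3rf2, Egr1, Per3, Bckdhb and Hdac9. Those called lower included Spon2, Nr1d1, Scd2, Igf1, B2m, Fbn1 and Tnfrsf12a. The common biological coefficient of variation was 0.173 there and 0.236 in the fit of 4 groups. The genes named next were chosen after these calls were seen. Higher genes included Ier5 (10.9 ± 2.13 against 21.9 ± 2.39 CPM), an immediate early gene outside the list, and Art5, an ADP-ribosyltransferase of muscle (14.3 ± 2.07 against 28.1 ± 3.24 CPM). Nnat, neuronatin, a proteolipid of the endoplasmic reticulum, was counted 3, 12, 6, 0 and 3 times in control and 134, 67 and 24 times in anti-CD8a. Its groups were separate but its 3 anti-CD8a values were far apart. Lower genes included Kcng4, a modifier subunit of potassium channels, at 44.1, 31.9, 32.3, 38.4 and 31.7 CPM in control and 14.4, 13.5 and 9.26 CPM in anti-CD8a. IgG muscle had 0.581 ± 0.509 CPM of Kcng4 (SD, n = 4), and the log2 difference of 4.39 between anti-CD8a and IgG passed the test (edgeR adjusted p = 1.19e-05). Actc1, cardiac actin, was at 79.4 ± 16.9 against 28.3 ± 9.86 CPM, and Col28a1, a collagen of peripheral nerve, at 1.49 ± 0.430 against 0.417 ± 0.0848 CPM.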

How the data were processed

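Libraries of total RNA used the directional MGIEasy RNA kit, per the labels' protocols. Reads were processed with Trim Galore, STAR 2.7.9a and RSEM 1.3.3, per the submitters' processing notes. The genome build, the annotation and the use of strand in counting are not given in the sources used here, so genes with antisense partners or close copies, such as S100a8 and S100a9, H2-Q6 and H2-Q7 or mitochondrial genes and their nuclear copies, are less certain. The deposited values are RSEM expected counts per gene, made by the authors, and the deposited TPM column was used only to check tissue markers. Of 55416 gene identifiers 52083 matched the table of gene names supplied with the reference.

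Expected counts were rounded to whole numbers. All 15 libraries in 4 groups were fitted in edgeR 4.0.16 (R 4.3.3) with TMM scaling, filterByExpr, a quasi-likelihood fit and test, and Benjamini-Hochberg adjustment over 14372 genes. A gene was called at an adjusted p under 0.05. Standard errors are the absolute log2 fold change over the square root of F, and 95% intervals use the total degrees of freedom. A count of 0 allows up to 3 counts, 0.134 to 0.177 CPM in the 8 libraries, for counting error only. DESeq2 1.42.0 and other settings were alternatives, and the fit was tested on simulated data. Principal components came from log2 CPM with a prior count of 2.

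The comparison and the 43 gene lists were chosen with earlier results of these data known. The rule for naming genes took Cd8a, Cd274, Ctsl, Fbxo32 and Trim63, the called genes of largest change with a mean of at least 1 CPM and separate ranges, and for each list the called members or the member of smallest p. Other genes named, such as Sh3rf2, Arntl, Per3, Fos, Col3a1, Myh7, Igf1 and Retnla, were chosen after their values were seen.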

Additional observations from a re-analysis of the deposited data

Results flagged for a closer look

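In 66 checks of the 5 control libraries, 6 found a value far from the other 4 (gap over range above 0.71). Chance gives about 1 in 20 where values are independent and normally distributed. These are CPM of genes partly chosen by their values, so that rate is no standard for the 6. Control replicate 3 was high in Trim63 (1258 CPM), S100a8 (1.67 CPM), Igkc (1.84 CPM) and Tnfrsf12a (40.0 CPM). Control replicate 1 was high in mt-Nd3 (12386 CPM), and control replicate 5 in Art5 (17.97 CPM).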

How the results depend on the processing

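The 2 calls became 7 with upper-quartile scaling (4 higher, 3 lower), 68 with DESeq2 (34 and 34), 65 with no filter on low counts (41 and 24, over 27469 genes), 56 with anti-CD8a and control alone (26 and 30) and 12 when replicate 2 of both IgG and anti-PD-L1 was left out of the spread (7 and 5), a setting chosen after seeing the data. They remained 2 with RLE size factors and without the mitochondrial genes. The replicate block gave 0 calls (0 higher, 0 lower), with 690 genes at an unadjusted p under 0.05. Same-numbered libraries correlated at -0.01, 0.13 and 0.07, and in 0 of 3 pairs best with their own number. The labels do not say whether a shared number means shared handling, and 3 pairs are too few to tell. Leaving out 1 library gave 0 to 2 calls (0 to 1 higher, 0 to 1 lower), and in the 8 libraries alone, chosen after seeing the data, 7, 68, 55, 5 and 13 without control replicates 1 to 5 (3, 32, 27, 3 and 7 higher; 4, 36, 28, 2 and 6 lower) and 16, 9 and 115 without anti-CD8a replicates 1 to 3 (9, 5 and 71 higher; 7, 4 and 44 lower). With 0 calls, 748 to 1053 genes stood at an unadjusted p under 0.05. The cause of these differences was not tested. In the fit of 4 groups, Tbc1d4 and Spon2 passed without control replicate 2 (edgeR adjusted p 0.0445 for both). Without any other single library neither passed, with Tbc1d4 at log2 0.84 to 0.89 (edgeR adjusted p 0.0849 to 0.168) and Spon2 at -3.46 to -2.89 (0.0849 to 0.165). In the 8 libraries alone Tbc1d4 passed in all 8 such fits. Neither gene changed direction under these settings. The difference in mitochondrial share was 1.02 percentage points over the 13 protein genes, 0.389 with 4 nuclear copies added and 0.000966 to 1.51 without single libraries.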

Other observations

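These genes were chosen after their values were seen. Cish, a feedback inhibitor of cytokine signalling through STAT5, was at 14.8, 24.1, 33.2, 10.55 and 8.29 CPM in control and 4.63, 2.25 and 3.02 CPM in anti-CD8a. Its groups did not overlap, at a log2 difference of -2.46 ± 0.54 (SE; edgeR adjusted p = 0.183). Ear2, a ribonuclease of eosinophils and macrophages, was counted 18, 12, 13, 17 and 34 times in control and 25, 44 and 348 times in anti-CD8a, with replicate 3 far above the other 7 libraries. Clca3a1, a secreted regulator of chloride channels, was counted 3, 4, 9, 5 and 3 times in control and 35, 13 and 31 times in anti-CD8a, with no overlap.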
